A study of Mus musculus with 6 samples.

Results

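The kinetochore is the protein assembly that joins each chromosome to the spindle, and 56 genes for its parts were followed in the testis RNA of mice that lack SEL1L in germ cells. The genes were selected by name: 19 of the centromere and inner kinetochore, 15 of the outer kinetochore, 12 of the spindle checkpoint, 7 of the Aurora and Polo kinases with the chromosomal passenger complex, and 3 others, the kinesins Kif18a and Kif2c and the meiotic kinetochore gene Meikin. The list was drawn up from the counts described here, with earlier results of them in view, so all comparisons between genotypes below are descriptions and their p-values carry no independent weight. All 56 symbols were found among the 55536 genes of the count tables, and all 56 passed the filter on low counts and entered the comparison of 21465 genes.

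Whole testes of 3 KOStra8 and 3 HETStra8 mice, all 7 weeks old, were sequenced as poly(A)+ RNA with 1 library per mouse. KOStra8 mice are Sel1L flox/Δ;Stra8-Cre, with a floxed and a deleted Sel1L allele and a Cre driven by the promoter of Stra8, a gene that germ cells express as they approach meiosis. HETStra8 mice are littermates given as Sel1L flox/Δ in the design record of the series, where no Cre is named for them, whereas the paper uses the name HETStra8 for more than a single genotype, and which of these each mouse carried was not given in the sources used here. By that record both groups carry the deleted allele, and no group with wild-type alleles alone was analysed here. SEL1L is the adaptor of the HRD1 ubiquitin ligase, which removes misfolded proteins from the endoplasmic reticulum. Whole testis also holds early spermatogonia, and Sertoli and interstitial cells, which do not express Stra8.

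A kinetochore is built outwards from chromatin. Nucleosomes with the histone variant CENP-A mark the centromere, the constitutive centromere-associated network binds them through the whole cell cycle, and the KNL1, MIS12 and NDC80 complexes assemble on that network at division and hold the ends of microtubules. Kinetochores without microtubules catalyse the checkpoint complex of Mad2, BubR1 and Bub3 with Cdc20, which keeps the anaphase-promoting complex from starting anaphase, and Aurora B with its passenger subunits loosens wrong attachments. In the testis these proteins serve the mitoses of spermatogonia and both meiotic divisions of spermatocytes, and in meiosis I sister kinetochores face the same pole, for which MEIKIN is required. In bulk RNA of a testis, fewer cells of a type and less RNA per cell cannot be told apart.

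Many of these genes are transcribed in the later part of the cell cycle, and their promoters were searched for 3 motifs known from such genes. The motifs were the cell-cycle homology region (TTTGAA or TTCGAA), the CCAAT box (CCAAT) and an E2F-like site (TTTCCCGC, TTTGGCGC or TTTCGCGC), on both strands, in RefSeq windows of GRCm38.p6 from 250 bases before to 50 bases after the start of transcription. A window was found for 49 of the 56 genes. A cell-cycle homology region was in the windows of 26 of the 49 genes (53.1%), against 21.7% of 27025 genes. A CCAAT box was in 32 of them (65.3%), against 41.1% of all genes, and an E2F-like site in 5 (10.2%), against 2.12%. In 3 of 54 windows of these genes, matches of different motifs shared a base. By group, the cell-cycle homology region was found in 8 of 19 centromere genes, 6 of 12 outer kinetochore genes, 8 of 11 checkpoint genes and 3 of 5 genes of the Aurora group. The windows hold these letters, and whether a factor binds them in the testis was not measured.

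The 120 bases before the start of transcription follow, 5′ to 3′ on the strand of the gene and with motif letters in capitals, for the 4 genes with the largest differences between the genotypes.
Cenpf: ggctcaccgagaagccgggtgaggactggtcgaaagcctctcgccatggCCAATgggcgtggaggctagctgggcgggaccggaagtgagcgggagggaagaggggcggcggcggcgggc
Cenpe: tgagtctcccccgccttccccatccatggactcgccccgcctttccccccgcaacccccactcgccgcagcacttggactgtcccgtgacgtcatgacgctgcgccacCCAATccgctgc
Knl1: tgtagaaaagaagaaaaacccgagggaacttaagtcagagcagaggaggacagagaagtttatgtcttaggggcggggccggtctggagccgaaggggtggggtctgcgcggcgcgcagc
Kif18a: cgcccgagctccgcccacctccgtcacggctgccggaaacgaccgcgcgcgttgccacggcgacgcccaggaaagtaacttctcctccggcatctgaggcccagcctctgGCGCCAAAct
They lie in GRCm38.p6 at chr1:189688087-189688206 on the minus strand (Cenpf), chr3:135212443-135212562 on the plus strand (Cenpe), chr2:119046999-119047118 on the plus strand (Knl1) and chr2:109280618-109280737 on the plus strand (Kif18a). No motif is shared by all 4 stretches: Cenpf and Cenpe each have a CCAAT box, Kif18a has an E2F-like site, and that of Knl1 has none of the letters searched.

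The next 4 stretches belong to genes with high levels in both genotypes.
Cdc20: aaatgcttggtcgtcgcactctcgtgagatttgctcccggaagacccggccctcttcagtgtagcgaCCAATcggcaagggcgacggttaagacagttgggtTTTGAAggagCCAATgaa
Aurka: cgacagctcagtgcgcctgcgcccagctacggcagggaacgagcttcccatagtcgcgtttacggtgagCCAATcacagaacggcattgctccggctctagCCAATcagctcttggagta
Plk1: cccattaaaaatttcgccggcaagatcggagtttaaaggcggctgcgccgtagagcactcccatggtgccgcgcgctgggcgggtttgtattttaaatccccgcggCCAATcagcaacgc
Cenpn: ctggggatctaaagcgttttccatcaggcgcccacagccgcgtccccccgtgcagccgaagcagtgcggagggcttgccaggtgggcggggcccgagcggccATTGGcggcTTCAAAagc
They lie at chr4:118437344-118437463 on the minus strand (Cdc20), chr2:172370571-172370690 on the minus strand (Aurka), chr7:122159315-122159434 on the plus strand (Plk1) and chr8:116921620-116921739 on the plus strand (Cenpn). Each of the 4 has at least 1 CCAAT box, those of Cdc20 and Aurka have 2, and Cdc20 and Cenpn also have a cell-cycle homology region close to the start. In Kif2c, which had the highest level per kb of the list and is not shown, the same stretch holds a cell-cycle homology region and no CCAAT box.

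The libraries held 28875108 to 36526695 counts, with normalization factors of 0.990 to 1.01. Sel1l itself, the targeted gene, had 42.4 to 49.3 CPM (counts over the normalized library size, in the usual CPM unit) in HETStra8 and 20.3 to 24.2 CPM in KOStra8 testes, so that the mean in KOStra8 was 47.7% of that in HETStra8 (edgeR quasi-likelihood test, adjusted p = 0.00061). HETStra8 mouse 3 was not the mouse most often highest or lowest in its group, a count that leaves out the size of a departure. Of all 21465 tested genes, mouse 1 was the highest or lowest HETStra8 mouse in 72.8%, mouse 3 in 71.5% and mouse 2 in 55.7%. Of the 56 listed genes, mouse 1 was so in 83.9%, more often than either other mouse. In the trend with GC content, however, HETStra8 mouse 3 stood apart from mice 1 and 2. Across 13162 genes, the Spearman correlation of a library's deviation from the mean of all libraries with the GC content of the transcripts was 0.53 and 0.43 in HETStra8 mice 1 and 2, -0.09 in HETStra8 mouse 3 and -0.53 to -0.26 in the KOStra8 mice. The leading results are therefore also given without HETStra8 mouse 3 and with a correction for the GC content and length of transcripts. In edgeR, 443 of 22091 genes passed an adjusted p of 0.01 without HETStra8 mouse 3, against 4 of 21465 with all mice. Without HETStra8 mouse 1 it was 14 of 22173 genes, and without HETStra8 mouse 2 it was 3 of 22144. The labels do not say whether the mice came from separate litters, and all p-values measure the spread between these 6 mice.

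Levels of different genes were compared per length, as CPM per kb of exons. In HETStra8 testes the median level of the 56 genes was 6.46 CPM per kb, above the median of 2.73 CPM per kb of all 21465 tested genes. The median level was 15.6 CPM per kb in the Aurora and Polo group, 10.99 in the checkpoint group, 4.77 in the centromere group and 4.66 in the outer kinetochore group. The listed genes thus spanned from 0.643 CPM per kb (Cenpa) to 76.1 CPM per kb (Kif2c), and the parts of a single complex could differ by over an order of magnitude.

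**Figure D1:**
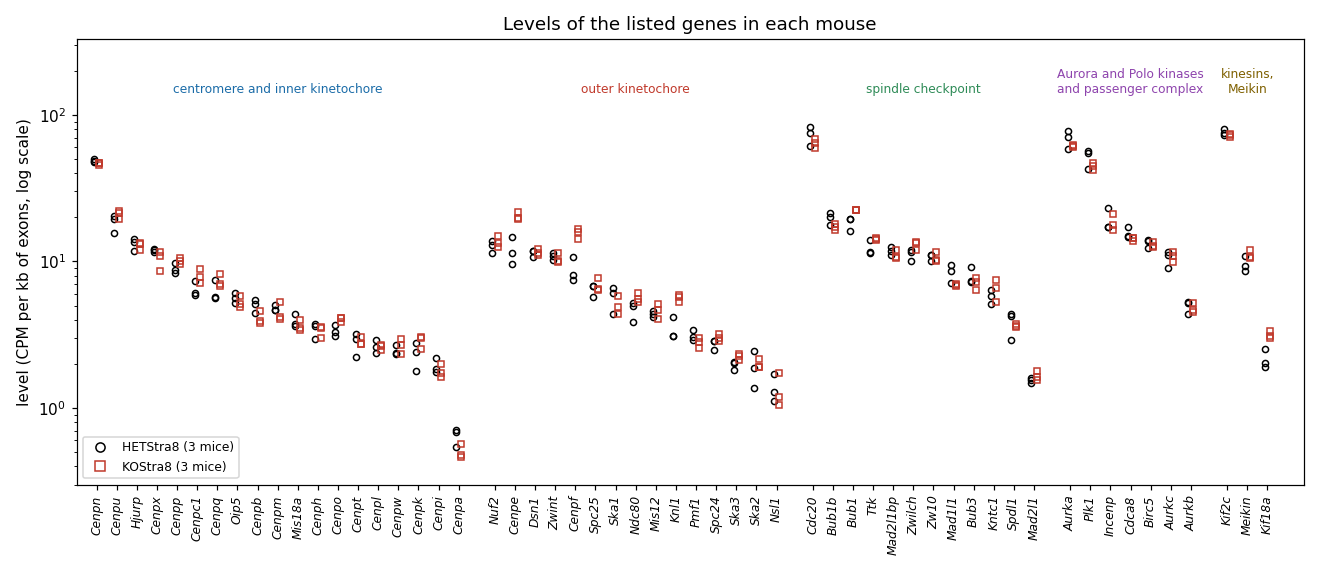
Level of each listed gene in each mouse, in CPM per kb of exons on a log scale; circles are the 3 HETStra8 and squares the 3 KOStra8 mice, and genes are ordered within each group by their HETStra8 mean. Kif2c, Cdc20, Aurka, Plk1 and Cenpn stand above all other listed genes, Cenpa is the lowest, and the squares lie clear above the circles for Cenpe, Cenpf, Knl1 and Kif18a.

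Kif2c, the microtubule-depolymerising kinesin at centromeres, had the highest level in HETStra8 testes, 76.1 ± 3.76 CPM per kb (SD, n = 3). It was followed by Cdc20, the activator of the anaphase-promoting complex, at 72.9 ± 10.6 CPM per kb, and by Aurka, the kinase of spindle poles, at 68.7 ± 9.27 CPM per kb. Per kb of exons, the levels of these 3 genes did not differ beyond their spread between mice. Plk1, the Polo kinase of mitotic entry and kinetochores, was at 51.5 ± 7.40 and Cenpn, a reader of CENP-A nucleosomes, at 48.6 ± 1.01 CPM per kb, and these also lay within their spread of each other. The next gene, Bub1b, was at 19.7 ± 1.84 CPM per kb. At the low end stood Cenpa at 0.643 ± 0.0875, Nsl1 of the MIS12 complex at 1.37 ± 0.306 and Mad2l1 at 1.54 ± 0.0656 CPM per kb. These places depend on length. The exons of Mad2l1 hold 8390 bases and those of Cenpa 5860, with coding sequences of 615 and 402 bases. Before division by length, Mad2l1 had a mean of 12.9 CPM in HETStra8, above the 5.35 CPM of Ska3. With lengths of the longest transcript in place of all exons, the same 5 genes led the order and Cenpa remained the lowest.

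Subunits that bind each other in equal numbers had unequal transcript levels. Cenpn was 18.6 ± 1.66 times as high per kb as Cenpl, its partner in the CENP-L/N dimer, in HETStra8 mice, and 17.8 ± 0.507 times as high in KOStra8 mice. Nuf2 was 2.75 ± 0.186 times as high as Ndc80, with which it forms a dimer, in HETStra8 and 2.41 ± 0.155 times in KOStra8. Dsn1 of the MIS12 complex was 8.65 ± 2.16 times as high as Nsl1, a subunit of the same complex, in HETStra8. These ratios lay above 1 in all 6 mice. Hjurp, the chaperone that deposits CENP-A, was 20.9 ± 4.65 times as high per kb as Cenpa in HETStra8 and 25.8 ± 4.22 times in KOStra8. All these ratios depend on the lengths used for the genes.

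Between the genotypes, none of the 56 genes passed an adjusted p of 0.01, where 4 of 21465 tested genes (0.0186%) did, and none passed an adjusted p of 0.05. At an unadjusted p of 0.05, which is a description only, 10 of 56 were higher in KOStra8, against 7.13% of all tested genes, and 3 were lower, against 5.12%. The 3 mice of each group did not overlap for 9 genes that were higher in KOStra8 (background 9.33% of genes) and for 3 that were lower (background 8.43%). The median log2 fold change of the 56 genes was -0.01, as was that of all tested genes, and 27 of the 56 lay above 0. The median and the counts of lower genes thus lay near those of all genes, while the counts of higher genes lay above their background shares. DESeq2 gave an adjusted p to 55 of the 56 and called 4 higher at 0.01, Cenpf, Cenpe, Knl1 and Kif18a, where it called 0.920% of 12928 genes higher. limma-voom called none of the 56. Without HETStra8 mouse 3 edgeR also called these 4 genes higher, where 1.91% of 22091 genes were called higher, and none lower, where 0.0996% were. On leaving out any other single mouse, edgeR without the GC and length correction called none of the 56 at 0.01.

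**Figure D2:**
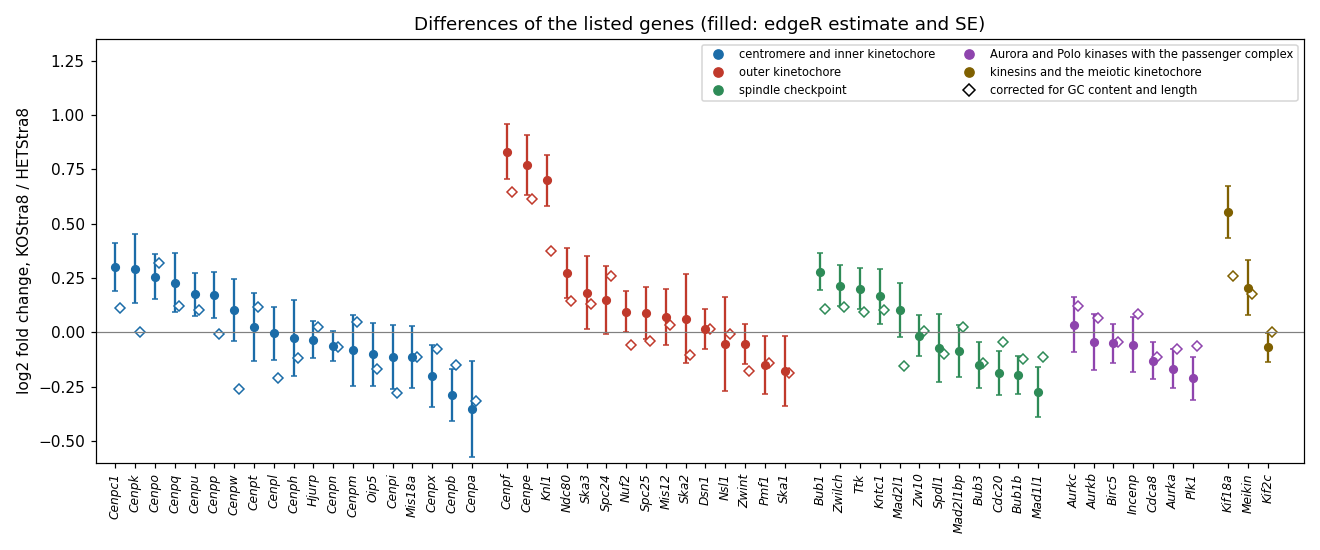
log2 fold change of KOStra8 over HETStra8 for the 56 genes by group; filled points with bars are the edgeR estimate ± SE (3 mice against 3), and open diamonds are the estimates after the GC and length correction. Cenpf, Cenpe, Knl1 and Kif18a lie between 0.55 and 0.83 without correction and between 0.26 and 0.65 with it, and all other listed genes lie between -0.35 and 0.30 without correction.

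The outer kinetochore held 3 of the 4 largest differences. The median log2 fold change of its 15 genes was 0.09, and 11 lay above 0, against a median of 0.02 and 8 above 0 with the GC and length correction and a median of 0.14 without HETStra8 mouse 3. At an unadjusted p of 0.05, 4 were higher in KOStra8, against 7.13% of all genes, and none lower, against 5.12%. In 6 the mice of the groups did not overlap, with KOStra8 higher in each, against 9.33% of all genes. The genes in question were Cenpf, Cenpe, Knl1 and Ndc80, and without a small p also Spc24 and Ska3.

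Cenpf (chr1:189640606-189688086) codes for a large microtubule-binding protein of the fibrous corona that also holds dynein regulators at kinetochores. It had 115, 125 and 166 CPM in HETStra8 mice 1, 2 and 3 and 244, 221 and 257 CPM in the KOStra8 mice. The groups did not overlap, and HETStra8 mouse 3 was the nearest to KOStra8. The difference was 1.78-fold, a log2 fold change of 0.83 ± 0.13 (SE), with an adjusted p of 0.0654 by edgeR's quasi-likelihood test. It was 0.65 with the GC and length correction (adjusted p = 0.0367) and 1.02 without HETStra8 mouse 3, where edgeR gave an adjusted p of 3.38e-06.

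Cenpe (chr3:135212537-135273611), the plus-end-directed kinesin that carries chromosomes to the spindle equator, had 82.4, 98.2 and 127 CPM in HETStra8 and 167, 171 and 188 CPM in KOStra8 mice. Again the groups were separate and HETStra8 mouse 3 was the highest of its group. The log2 fold change was 0.77 ± 0.14 (SE), with an adjusted p of 0.108 by edgeR, and 0.61 once GC content and length were corrected for. Without HETStra8 mouse 3 it was 0.97, with an adjusted p of 1.26e-05 by edgeR.

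Knl1 (chr2:119047119-119105501) is the scaffold on which Bub1 and BubR1 are recruited to kinetochores. Its values were 26.4, 26.6 and 35.5 CPM in HETStra8 and 48.5, 44.9 and 50.2 CPM in KOStra8 mice. The log2 fold change was 0.70 ± 0.12 (SE), with an adjusted p of 0.0521 by edgeR, and the GC and length correction took it to 0.37, with an adjusted p of 0.189. Without HETStra8 mouse 3 it was 0.86, with an adjusted p of 7.52e-05 by edgeR. Zwint, the partner of Knl1 in the same complex, had a log2 fold change of -0.05. The ratio of Knl1 to Zwint per kb was accordingly 0.32 ± 0.057 in HETStra8 and 0.54 ± 0.071 in KOStra8 mice (SD, n = 3).

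Of the NDC80 complex, which grips the microtubule, all 4 genes had values above 0, 2 of them also with the GC and length correction, and none passed the test. Ndc80 was at 0.27 ± 0.12 (SE) on the log2 scale, with 25.2 to 33.6 CPM in HETStra8 and 34.2 to 39.5 CPM in KOStra8, and at 0.15 with the correction. Nuf2 had 72.9, 81.7 and 87.6 CPM in HETStra8 and 84.5, 78.9 and 95.2 CPM in KOStra8 mice, which overlapped, with a log2 fold change of 0.10 ± 0.095 (SE). After the GC and length correction Nuf2 turned to -0.06, so that it had no settled direction. The MIS12 complex, which links the inner and the outer kinetochore, lay between -0.15 (Pmf1) and 0.07 (Mis12), and the 3 genes of the SKA complex, which helps NDC80 follow shrinking microtubule ends, between -0.18 (Ska1) and 0.18 (Ska3).

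**Figure D3:**
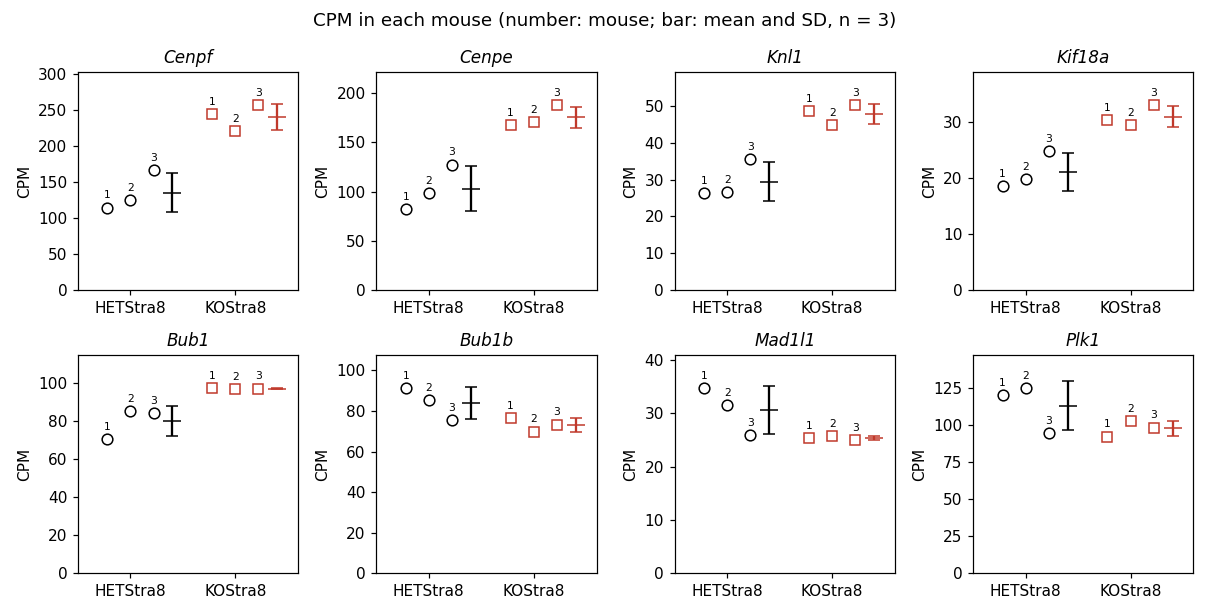
CPM of 8 listed genes in each mouse; circles are HETStra8 and squares KOStra8 mice, numbered as in their titles, and bars give the mean ± SD (n = 3). The groups are separate for Cenpf, Cenpe, Knl1, Kif18a, Bub1 and Mad1l1, whereas Bub1b and Plk1 overlap, and HETStra8 mouse 3 lies nearest to the KOStra8 mice in all of these genes but Bub1.

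Kif18a (chr2:109280738-109341747), the kinesin that damps the swinging of chromosomes at the spindle equator, had 18.6, 19.8 and 24.8 CPM in HETStra8 and 30.4, 29.5 and 33.01 CPM in KOStra8 mice. The log2 fold change was 0.55 ± 0.12 (SE), with an adjusted p of 0.113 by edgeR, and 0.26 after the GC and length correction, with an adjusted p of 0.522. Without HETStra8 mouse 3 it was 0.70, with an adjusted p of 0.00127. Kif2c had 319, 327 and 350.4 CPM in HETStra8 and 319, 322 and 308 CPM in KOStra8 mice, a log2 fold change of -0.07 ± 0.068 (SE), and the correction took it to 0.0020. Kif2c was thus 35.9 ± 3.61 times as high per kb as Kif18a in HETStra8 and 23.1 ± 1.86 times in KOStra8 mice. Meikin had 16.7, 14.2 and 13.1 CPM in HETStra8 and 16.4, 18.2 and 16.1 CPM in KOStra8 mice. The Meikin values overlapped through HETStra8 mouse 1, with a log2 fold change of 0.20 ± 0.13 (SE) and an adjusted p of 0.531 by edgeR.

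The 19 genes of the centromere and inner kinetochore showed no common direction. Their median log2 fold change was -0.03, with 8 above 0, and at an unadjusted p of 0.05 2 were higher and 1 lower in KOStra8, against 7.13% and 5.12% of all genes. The 5 genes of CENP-A chromatin and its loading all lay below 0, with a median of -0.11, and 1 of them (Hjurp) lay above 0 with the GC and length correction. Of the 14 genes of the constitutive network, 8 lay above 0.

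Cenpa, the histone variant that marks the centromere, had the lowest estimate of all 56 genes and the lowest level. It had 3.18, 4.13 and 3.99 CPM in HETStra8 and 2.81, 3.35 and 2.71 CPM in KOStra8 mice, from 97 to 139 counts per library. The groups overlapped between KOStra8 mouse 2 and HETStra8 mouse 1, and the log2 fold change of -0.35 ± 0.22 (SE) had an adjusted p of 0.532 by edgeR. Cenpb, which binds the CENP-B box of satellite repeats, had 26.7, 25.2 and 21.7 CPM in HETStra8 and 22.5, 18.6 and 19.1 CPM in KOStra8 mice. Its log2 fold change was -0.29 ± 0.12 (SE), with an adjusted p of 0.355, and -0.15 after the GC and length correction. The loading factors lay closer to 0, at -0.03 for Hjurp, -0.10 for Oip5 and -0.11 for Mis18a.

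In the constitutive network, Cenpc1, which codes for the CENP-C bridge from CENP-A nucleosomes to the MIS12 complex, had 33.5, 34.6 and 41.1 CPM in HETStra8 and 44.4, 40.1 and 49.9 CPM in KOStra8 mice. Its log2 fold change of 0.30 ± 0.11 (SE) had an adjusted p of 0.3001 and fell to 0.11 after the correction. Cenpo, of the COMA branch of the network, had 26.7, 24.0 and 22.6 CPM in HETStra8 and 28.0, 29.6 and 29.8 CPM in KOStra8 mice. The groups did not overlap, and the log2 fold change was 0.26 ± 0.10 (SE), with an adjusted p of 0.345, and 0.32 after the correction. Of the exons of Cenpo, 22.5% overlap genes of the other strand (Adcy3 and Ptrhd1), and the strand setting of the counting is not given in the sources used here. Cenpn had 157, 164 and 159 CPM in HETStra8 and 154, 151 and 155 CPM in KOStra8 mice. These values were separate but close, at -0.06 ± 0.069 (SE), with an adjusted p of 0.743. The other 11 genes of the network lay between -0.20 (Cenpx) and 0.29 (Cenpk), with overlapping mice. Among these, 26.7% of the exons of Cenpu overlap Primpol and 12.6% of those of Cenpp overlap other genes, all on the opposite strand.

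The 12 spindle checkpoint genes had estimates of both signs around a median log2 fold change of -0.04. At an unadjusted p of 0.05, 3 were higher (Bub1, Zwilch and Ttk) and 2 lower (Bub1b and Mad1l1) in KOStra8, against 7.13% and 5.12% of all genes. With the GC and length correction none was on either side, against 4.33% of all genes higher and 3.14% lower.

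Bub1, the kinase that marks centromeric chromatin for Shugoshin and Aurora B, had 70.8, 85.3 and 84.1 CPM in HETStra8 and 97.3, 96.9 and 97.2 CPM in KOStra8 mice. The KOStra8 mice lay closely together above all HETStra8 mice, with a log2 fold change of 0.28 ± 0.086 (SE) and an adjusted p of 0.239 by edgeR, and 0.11 after the GC and length correction. It was 0.33 without HETStra8 mouse 3, with an adjusted p of 0.0438. Bub1b codes for BubR1, the paralogous subunit of the checkpoint complex, and its estimate had the opposite sign. It had 91.1, 85.4 and 75.6 CPM in HETStra8 and 76.7, 69.9 and 73.3 CPM in KOStra8 mice, a log2 fold change of -0.20 ± 0.088 (SE), with an adjusted p of 0.388 and -0.12 after the correction. The ratio of Bub1b to Bub1 per kb was 1.08 ± 0.206 in HETStra8 and 0.77 ± 0.034 in KOStra8 mice (SD, n = 3).

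Mad1l1, the kinetochore anchor of Mad2, had 34.6, 31.5 and 25.8 CPM in HETStra8 and 25.3, 25.6 and 25.0 CPM in KOStra8 mice. Mouse 3 of HETStra8 was all but level with the KOStra8 mice, and the log2 fold change was -0.28 ± 0.11 (SE), with an adjusted p of 0.361, and -0.11 after the correction. Without that mouse it was -0.37, with an adjusted p of 0.0469. Mad2l1 itself had 12.4, 12.99 and 13.5 CPM in HETStra8 and 13.7, 12.99 and 15.0 CPM in KOStra8 mice. Its log2 fold change of 0.10 ± 0.12 (SE) turned to -0.15 with the GC and length correction, so neither sign was settled.

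Cdc20, which the checkpoint complex holds, had 154, 139.9 and 115 CPM in HETStra8 and 111, 128 and 119.8 CPM in KOStra8 mice. These overlapped, with a log2 fold change of -0.19 ± 0.10 (SE) and an adjusted p of 0.468. It was -0.05 with the correction and -0.29 without HETStra8 mouse 3. Of the 50-base words of its transcripts, 10.4% also occur in other genes. Zwilch, a subunit of the RZZ complex that brings dynein and Mad1 to kinetochores, had 43.2, 49.3 and 51.6 CPM in HETStra8 and 51.4, 57.4 and 58.3 CPM in KOStra8 mice. It was at 0.21 ± 0.095 (SE), with an adjusted p of 0.387, and 0.12 after the correction. Ttk, the Mps1 kinase that starts the checkpoint signal, was at 0.20 and at 0.10 with the correction, and the remaining 5 genes (Bub3, Mad2l1bp, Zw10, Kntc1 and Spdl1) lay between -0.15 and 0.17.

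The 7 genes of the Aurora and Polo kinases and the passenger complex had estimates between -0.21 and 0.03, of which that of Aurkc was above 0, and below it (-0.06) without HETStra8 mouse 3. With the GC and length correction 3 of the 7 lay above 0. None had an unadjusted p under 0.05, against 7.13% of all genes higher and 5.12% lower. The median log2 fold change was -0.06. The median was -0.12 without HETStra8 mouse 3, and 2 of the 7, Plk1 and Aurka, were lower at an unadjusted p of 0.05, against 8.81% of all genes in that fit. Plk1 had 120.3, 125 and 94.6 CPM in HETStra8 and 92.4, 103 and 98.4 CPM in KOStra8 mice. HETStra8 mouse 3 lay among the KOStra8 mice, and the log2 fold change was -0.21 ± 0.10 (SE), with an adjusted p of 0.410 by edgeR, and -0.06 after the GC and length correction. Without that mouse it was -0.32, with an adjusted p of 0.0273. Aurka had 195, 178 and 149 CPM in HETStra8 and 152, 156 and 156 CPM in KOStra8 mice. HETStra8 mouse 3 was the lowest of its group, as for Plk1, but here it lay below all KOStra8 mice. The log2 fold change of Aurka was -0.17 ± 0.091 (SE), with an adjusted p of 0.471 by edgeR. It was -0.08 with the correction and -0.26 without that mouse, where edgeR gave an adjusted p of 0.0526.

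Aurkb, the catalytic subunit of the passenger complex in mitosis, had 15.5, 15.4 and 12.9 CPM in HETStra8 and 13.7, 13.4 and 15.3 CPM in KOStra8 mice, a log2 fold change of -0.05 ± 0.13 (SE) that the correction took to 0.06. Aurkc, the paralog that is largely restricted to germ cells, had 17.6, 16.8 and 13.7 CPM in HETStra8 and 15.2, 16.5 and 17.6 CPM in KOStra8 mice. Both kinases overlapped fully between the genotypes, and the log2 fold change of Aurkc was 0.03 ± 0.13 (SE). Per kb of exons, Aurkc was 2.12 ± 0.0687 times as high as Aurkb in HETStra8 mice, and 1.53 ± 0.0494 times by the length of the longest transcript, a measure added after the values were seen. Aurka was 13.8 ± 0.733 times as high as Aurkb per kb of exons. The Aurkc counts are uncertain, since 54.8% of its 50-base words also occur in other genes. Of the pseudogenes that hold them, Gm12463 had 50 to 131 counts per mouse and Gm7789 at most 10.

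The passenger subunits Incenp, Birc5 (Survivin) and Cdca8 (Borealin), which take the Aurora kinase to centromeres, lay at -0.06, -0.05 and -0.13. Cdca8 had 88.5, 75.5 and 77.5 CPM in HETStra8 and 71.1, 74.9 and 74.3 CPM in KOStra8 mice. The groups did not overlap, but by a narrow margin, with an adjusted p of 0.544. The ratio of Incenp to Birc5 per kb was 1.43 ± 0.195 in HETStra8 and 1.42 ± 0.128 in KOStra8 mice. For each of the genes whose mice did not overlap, the exact two-sided permutation test of 3 mice against 3 gives p = 0.1, which is the smallest it can give.

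The direction of a gene went with the GC content of its transcript. Over the 56 genes the log2 fold change had a Spearman correlation of -0.67 with GC content, and over 21457 tested genes one of -0.46, both across genes of the same libraries. Of 12 listed genes under 42% GC, 10 lay above 0, with a median log2 fold change of 0.14, while the median of all tested genes in that range was 0.25. Of 27 genes from 42 to 50% GC, 13 lay above 0, with a median of -0.02 (all genes 0.05), and of 17 genes at 50% or more, 4 did, with a median of -0.08 (all genes -0.11). In each range the listed genes thus followed the direction of the other genes or lay near 0. After the GC and length correction the correlation was -0.04 over the listed genes, 5 of them had an unadjusted p under 0.05 and were higher in KOStra8 (Cenpf, Cenpe, Knl1, Kif18a and Cenpo), against 4.33% of all genes, and none was lower, against 3.14%. With the correction and without HETStra8 mouse 3, a combination added after the values were seen, 2 of the 56 passed an adjusted p of 0.01 and were higher (Cenpf and Cenpe), where 0.521% of 22091 genes did, and none was lower, where 0.113% were.

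**Figure D4:**
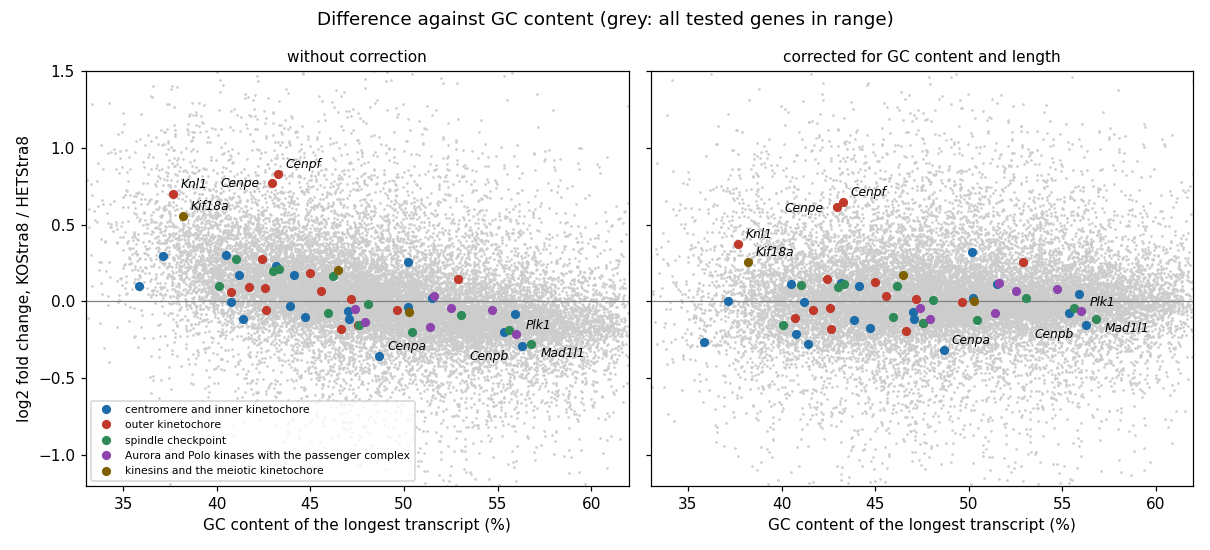
log2 fold change of KOStra8 over HETStra8 against the GC content of the longest transcript (in percent) for the 56 genes, coloured by group, over all tested genes in grey; left without and right with the GC and length correction. On the left the cloud slopes down from AT-rich to GC-rich genes and the listed genes go with it, while Cenpf and Cenpe, at 43% GC, lie above the cloud's middle in both panels.

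The leading genes were also long. By coding sequence, the 4 longest of the 56 genes were Cenpf (8991 bases), Cenpe (7413 bases), Kntc1 (6621 bases) and Knl1 (6357 bases), followed at a distance by Bub1 (3177 bases). Of these 4, Kntc1, whose product Rod is a subunit of the RZZ complex, differed least, with a log2 fold change of 0.17 ± 0.13 (SE), and its transcript has the highest GC content of the 4 (46.2%, against 43.3% in Cenpf, 42.9% in Cenpe and 37.7% in Knl1). Over the 56 genes the log2 fold change had a Pearson correlation with transcript length of 0.60, but a Spearman correlation of 0.29, and over all tested genes the Spearman correlation was 0.02. After the GC and length correction, the Pearson correlation over the 56 genes was still 0.47, and the Spearman correlation 0.05.

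A further list of 51 genes of cell division, of which 50 were tested, was set beside the kinetochore genes. Its median log2 fold change was -0.01, and none passed an adjusted p of 0.01 in edgeR with all mice. At an unadjusted p under 0.05, 10 were higher in KOStra8 (7.13% of all genes) and 5 were lower (5.12% of all genes). With the GC and length correction 7 were higher (4.33% of all genes) and 2 lower (3.14%). Among the higher ones was Sgo2a, the Shugoshin that protects cohesin at centromeres, at 0.66 ± 0.13 (SE) and 0.46 after the GC and length correction. The highest estimate was that of Fbxo5, an inhibitor of the anaphase-promoting complex, at 0.82 ± 0.28 (SE) from a mean of only 1.52 CPM in HETStra8. Kif20b, a kinesin of cytokinesis, was at 0.74 ± 0.19 (SE) and 0.51 after the correction. The largest in the other direction was Nde1, a dynein regulator, at -0.26 ± 0.12 (SE) and -0.20 after the correction. Separase, Espl1, which cleaves cohesin at anaphase, was at -0.21 ± 0.087 (SE) and -0.09 after the correction. Without HETStra8 mouse 3, 5 of these genes passed an adjusted p of 0.01 in edgeR, all of them higher in KOStra8, where 1.91% of all genes were, and Itgb3bp, Sgo2a, Kif15 and Kif20b were among them.

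Markers of the cells that could carry these transcripts moved as follows. Among 12 proliferation genes the median log2 fold change was -0.06, with Mki67 at 0.66 ± 0.13 (SE) and Mcm5 at -0.36 ± 0.11 (SE). With the GC and length correction these were -0.03, 0.57 and -0.26. The 8 leptotene and zygotene markers had a median of 0.10, or 0.04 with the GC and length correction and 0.23 without HETStra8 mouse 3. Their summed level was 239 to 315 CPM in HETStra8, where mouse 3 was the highest, and 322 to 355 CPM in KOStra8. Most of that sum was Meioc, at a mean of 125 CPM in HETStra8 and 186 CPM in KOStra8. The log2 fold changes were 0.57 for Meioc, 0.55 for Rad51ap2, 0.37 for Ythdc2 and 0.15 for Spo11. Meiob was at 0.05, Dmc1 at 0.03, Prdm9 at -0.15 and Mei1 at -0.17. With the correction these 8 genes were, in the same order, at 0.32, 0.28, 0.18, 0.12, -0.16, -0.11, -0.16 and -0.03. The 10 spermatogonial markers had a median of -0.07, or 0.03 with the correction. They summed to 103 to 111 CPM in HETStra8 and 97.9 to 108 CPM in KOStra8. The 8 pachytene and diplotene markers had a median of -0.03, the 8 round spermatid markers one of 0.01 and the 8 elongating spermatid markers one of -0.03. With the correction these medians were 0.02, -0.01 and 0.01, so none had a settled sign. All 8 Sertoli cell markers lay below 0, or 6 of 8 with the GC and length correction, with a median of -0.21 (-0.10 with the correction) and sums of 1097 to 1303 CPM in HETStra8 and 917 to 1055 CPM in KOStra8. The medians were -0.29 for 6 Leydig cell markers, -0.13 for 4 peritubular myoid markers, -0.36 for 5 macrophage markers and -0.30 for 5 endothelial markers. With the correction they were -0.23, -0.04, -0.21 and -0.23. Of 5 epididymis markers only 1 had enough counts to be tested, at -0.10. No marker of these lists passed an adjusted p of 0.01 with all 6 mice, while without HETStra8 mouse 3 Mki67 and the meiotic entry gene Meioc did, both higher in KOStra8. The part of the makeup of the testis in the values of the kinetochore genes was not tested.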

How the data were processed

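Testis poly(A)+ RNA of 3 KOStra8 and 3 HETStra8 mice was analysed, and mice keep the numbers of their sample titles. The files that the authors deposited, 1 per mouse, hold the raw count of reads of each of 55536 Ensembl genes. Per the submitters' processing notes STAR 2.7.1a, Picard 2.20.4, StringTie 2.0.4, featureCounts 1.6.0 and HTSeq are named, without roles. Symbols, positions, lengths and GC content came from GENCODE mouse release 21 (GRCm38), and promoters from RefSeq. Protein sequences were not used here. The list of 56 genes, its groups and all other gene lists were chosen with earlier results of these data known.

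Counts were analysed with edgeR 4.0.16 in R 4.3.3 (filterByExpr, TMM, robust quasi-likelihood fit on genotype, two-sided F test, Benjamini-Hochberg adjustment over 21465 genes, cutoff 0.01 after the study). CPM are TMM-normalized, and level per kb is CPM over the length of all exons. The common coefficient of biological variation was 0.160. The correction for GC content and length used a loess curve per library (span 0.3) over genes with a log2 CPM above 2. GC values were lacking for 8 tested genes, which kept their counts. Values of each mouse were given for up to 3 genes per group with the smallest p, the gene with the highest level per kb, and Aurka, Aurkb, Aurkc, Meikin, Bub1, Bub1b, Mad2l1 and Cenpa. The further division genes and markers given with values were chosen after these were seen, and the values of 1 gene are not reported here. Alternatives were DESeq2 1.42.0 (size factors, Wald test), limma-voom (limma 3.58.1), no filter, at least 10 counts in every sample, the replicate number as a block, an adjusted p of 0.05 and leaving out each mouse. The steps were tested on simulated data.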

Additional observations from a re-analysis of the deposited data

How the results depend on the processing

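The results were recomputed under each alternative. Of these, 98 of 136 recomputed counts and group medians and 296 of 323 recomputed values of single genes and ratios were taken as the same. A count was so taken if it was equal to the reported count or within a fixed factor of it. A median or ratio was if it moved by less than the spread between mice. A single gene was if it kept its sign and did not newly pass an adjusted p of 0.01, whatever the size of its shift. Where a value moved, the cause was not tested. Listed genes past an adjusted p of 0.01, none of 56 in the reported fit, numbered 4 with no filter (1.07% of all genes passed there), 4 with DESeq2 (0.998%), 3 with the replicate block (Cenpf, Cenpe and Knl1; 0.149%), 1 with the GC and length correction with the block (Cenpf; 0.0186%), and 2 with the correction and without HETStra8 mouse 3 (0.634%), and ranged from 0 to 4 on leaving out each mouse, with the 4 reached without HETStra8 mouse 3 (2.01%). Over all these alternatives the adjusted p ranged from 3.27e-19 to 0.363 for Cenpf, from 1.20e-15 to 0.501 for Cenpe, from 1.68e-08 to 0.363 for Knl1 and from 0.000379 to 0.565 for Kif18a, always with KOStra8 higher. Listed genes higher at an unadjusted p of 0.05 numbered 10 in the reported fit (7.13% of all genes). They numbered 5 with the GC and length correction (4.33%) and 5 with it and the block (4.43%). With the correction and without HETStra8 mouse 3 they numbered 6 (7.17%). On leaving out each mouse they numbered 5 to 12, with 5 reached without KOStra8 mouse 3 (4.29%) and 12 without HETStra8 mouse 3 (11%). Listed genes lower numbered 3 in the reported fit (5.12% of all genes) and 5 with no filter (4.26%). They numbered 0 with the correction (3.14%) and 0 with it and the block (2.81%). With the correction and without HETStra8 mouse 3 they numbered 6 (5.04%). On leaving out each mouse they numbered 0 to 6, with 6 reached without HETStra8 mouse 3 (8.81%). Without that mouse the shares of all genes thus also rose.

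The median log2 fold change of the centromere group was -0.066 with the correction, -0.066 with it and the block, -0.070 with it and without HETStra8 mouse 3, and -0.024 to 0.020 on leaving out each mouse, above 0 without KOStra8 mouse 2. That of the outer kinetochore was 0.015 with the correction and 0.015 with it and the block. On leaving out each mouse the medians were -0.013 to 0.035 for all 56 genes, -0.076 to 0.025 for the checkpoint and 0.14 to 0.31 for the kinesins and Meikin, which gave 0.085 with the correction and without HETStra8 mouse 3. The sign turned with the correction, and with the correction and the block, for Nuf2 (-0.059 and -0.061), Mad2l1 (-0.15 and -0.15), Aurkb (0.065 and 0.063) and Kif2c (0.0020 and 0.0047). Aurkc lay between -0.056 and 0.10 on leaving out each mouse, and was below 0 without HETStra8 mouse 3 and without KOStra8 mouse 3. The replicate numbers do not pair the mice: the correlations of the deviations of same-numbered mice were -0.05, -0.08 and 0.14, and only mouse 3 correlated best with its own number. At these depths genes with few counts, such as Cenpa, with 97 to 139 counts per mouse, carry a counting error besides the spread between mice.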
